A study of Mus musculus with 32 samples.

Results

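Cartilage of mice in a model named MMS, from the group MMS D14, was compared with cartilage of Control mice. The members were the 4 samples of these groups, 2 labelled MMS D14 and 2 labelled Control, of 14 cartilage samples and 32 samples in the series, and all 1606 genes of the cartilage table were tested. RNA had been extracted with Trizol from dissected tissue of C57BL/6 mice and sequenced in bulk, so each value averages over all cells in the piece. The other cartilage groups were MMS D3, MMS D7, MMS D28, R1 and R2, with n = 2 each, and they entered the fit and the comparisons of MMS D14 with the groups on either side of it. What MMS, R1 and R2 stand for is not spelled out in the labels, which give no unit for the numbers after D, and state no age, so group names are used as given. Whether replicates came from separate animals is not stated, and every p-value below measures only the spread between samples.

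Articular cartilage is built and kept by chondrocytes, which secrete type II collagen, the proteoglycan aggrecan and smaller matrix proteins. When cartilage is damaged, these cells are known to make less of that matrix and more of the collagenases that cut it, and fibroblast-like repair tissue rich in type III collagen can form. Wnt and bone morphogenetic protein (BMP) signals and their secreted antagonists steer chondrocytes between a stable state and the hypertrophic state that precedes bone. Bone marrow lies beneath the joint surface and holds maturing neutrophils and B cells, the blood cell types whose genes were most completely represented among the listed genes.

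Several genes with the largest changes belong to families of near-identical copies, and their sequences show how far reads can be told apart. Serpina1 genes encode alpha-1 antitrypsin, the main circulating inhibitor of neutrophil elastase, and lie side by side on chromosome 12 of GRCm38. Any pair of the 5 copies had the same base at 96.3% to 98.5% of 1242 coding positions, and 86 positions varied among them. The stretch of coding bases 1102 to 1161 is shown because it holds 18 of these, set in capitals, and covers the part that encodes the loop by which the inhibitor meets its target protease.
Serpina1a: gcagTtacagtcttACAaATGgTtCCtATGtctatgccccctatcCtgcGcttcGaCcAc
Serpina1b: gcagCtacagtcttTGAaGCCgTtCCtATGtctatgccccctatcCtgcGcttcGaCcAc
Serpina1c: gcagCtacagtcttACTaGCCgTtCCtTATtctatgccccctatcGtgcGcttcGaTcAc
Serpina1d: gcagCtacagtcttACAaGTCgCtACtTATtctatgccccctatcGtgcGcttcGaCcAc
Serpina1e: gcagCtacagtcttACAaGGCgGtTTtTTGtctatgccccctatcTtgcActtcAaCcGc
Outside this stretch long runs are shared. Of all 50-base windows of the Serpina1a coding sequence, 74.4% occurred unaltered in another copy, against 44.8% for Serpina1b, 51.1% for Serpina1d and 39.0% for Serpina1e. Serpina1c was not analysed here. How the authors assigned reads that fit several copies is not given in the sources used here, so the values of single copies are uncertain.

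Stefin A genes encode small inhibitors of cysteine cathepsins that mouse neutrophils express, and they form a cluster on chromosome 16. Stfa2 and Stfa2l1 differed at 11 of 312 coding bases (96.5% identity), whereas Stfa3 had 81.1% identity to Stfa2. Coding bases 205 to 264 are shown with the bases that vary among these 3 in capitals.
Stfa2: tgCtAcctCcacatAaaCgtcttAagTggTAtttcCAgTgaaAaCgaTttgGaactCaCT
Stfa2l1: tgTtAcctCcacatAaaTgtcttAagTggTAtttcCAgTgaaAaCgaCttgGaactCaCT
Stfa3: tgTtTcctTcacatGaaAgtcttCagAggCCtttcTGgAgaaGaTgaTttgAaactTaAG
Stfa1 and BC100530 differed at 6 of 294 coding bases (98.0% identity), and coding bases 4 to 63 hold 3 of these differences in capitals.
Stfa1: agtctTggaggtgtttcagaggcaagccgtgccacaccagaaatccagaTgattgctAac
BC100530: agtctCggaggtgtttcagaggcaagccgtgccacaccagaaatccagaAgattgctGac
No 50-base window of Stfa3 occurred in Stfa2 or Stfa2l1, while 44.1% of the Stfa1 windows occurred in BC100530. The coding sequences are the longest reading frames of GENCODE vM21 transcripts on GRCm38.

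The deposited cartilage values are a normalised signal of unnamed unit, so levels are compared between samples and never between genes. Listed values summed to 114149 and 122974 in the MMS D14 samples, against 130471 and 121074 in the Control samples, and these are sums over selected genes, not depths. Depth is unknown. Of 17 chondrocyte markers 14 were measured. The lowest listed value in any cartilage sample was 0.5 (R2 replicate 1), so a marker value above 0 does not check the tissue label. They summed to 6000 and 4802 in MMS D14, against 17977 and 13286 in Control. Chad and Prg4 made up most of these sums, at 9949 and 4274 in Control replicate 1 and 2219 and 2053 in MMS D14 replicate 1. All 7 neutrophil markers and 5 of 6 B cell markers were measured in the same samples. The genes of the table were apparently selected: 1590 of 1606 (99.0%) differed at least 1.5-fold between the means of MMS D28 and Control, against 40.6% for MMS D14 and Control. The MMS D14 comparison uses those same Control samples, and its counts may therefore be shaped by that selection.

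**Figure D1:**
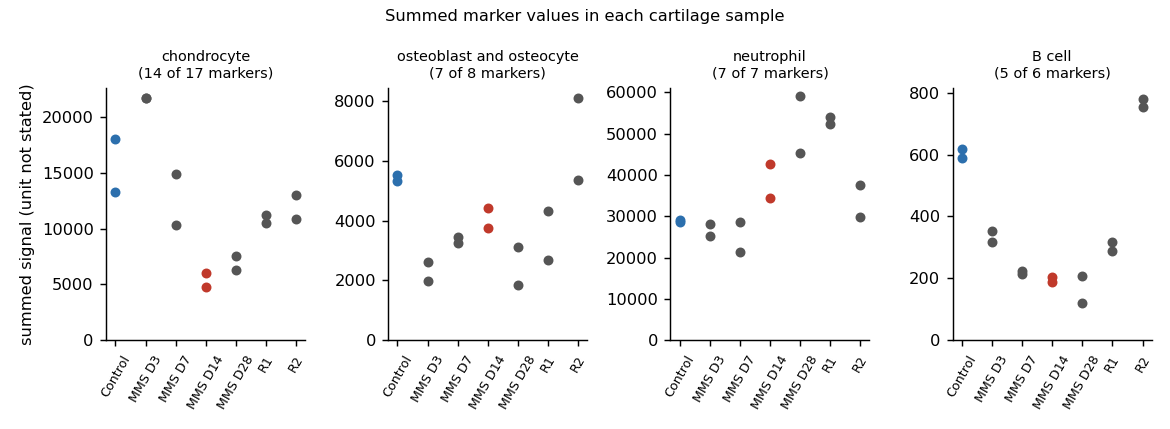
Summed normalised signal of the measured markers of 4 cell types in each of the 14 cartilage samples, with MMS D14 in red and Control in blue. Chondrocyte and B cell sums lay lower in MMS D14 than in Control, and neutrophil sums lay higher.

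Cartilage of MMS D14 differed from Control in a large part of the listed genes. Stefins, type III collagen, the chitinase-like protein gene Chil1 and the collagenase gene Mmp13 were among the largest rises, and Serpina1 copies, Cilp2, the Wnt antagonist gene Sfrp5 and the chondrocyte genes Cytl1 and Ucma were among the largest falls. limma called 859 of 1606 genes at an adjusted p under 0.05 (53.5%), 410 higher (25.5%) and 449 lower (28%). A further condition of an absolute log2 change of at least 1 left 211 genes. Changes are differences of log2(value + 1), which understate the change of genes with low values, and their median over all 1606 genes was 0.03. In 1359 genes (84.6%) both MMS D14 samples lay on the same side of both Control samples. The number of limma calls was smaller on leaving out any 1 library, most of all Control replicate 1 or MMS D14 replicate 2. The alternative with no filter on values repeats the main fit, since the filter removed 0 genes. Genes named for the largest rise or fall were ranked among called genes without overlap, with an average above the median and no predicted-model symbol. The 24 genes named for the largest rise or fall were called in each of the 10 alternatives run for single genes.

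**Figure D2:**
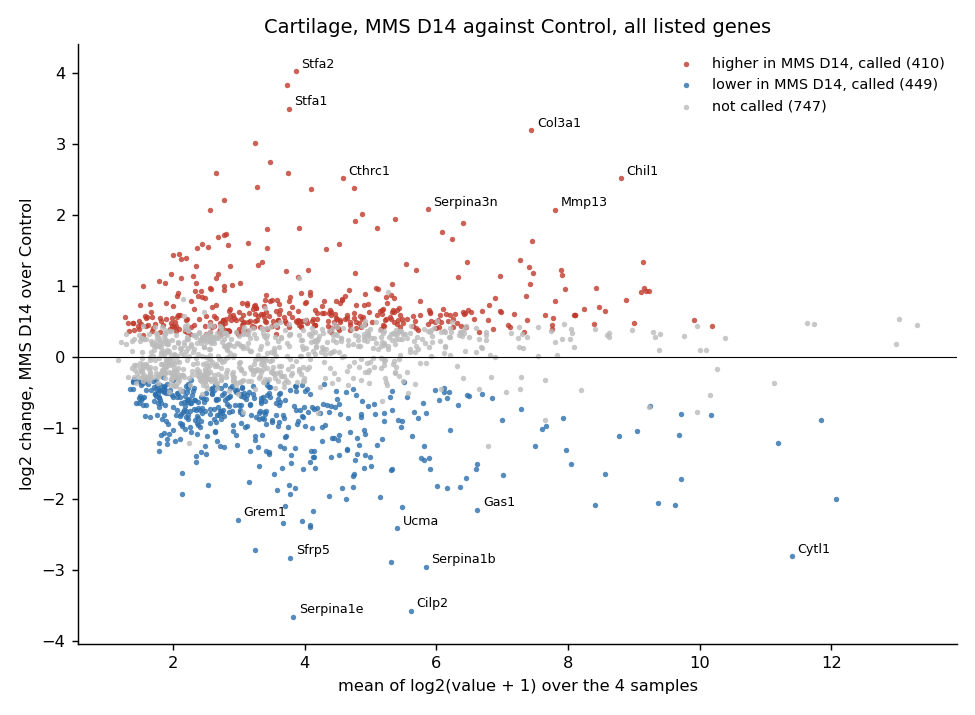
Log2 change of MMS D14 over Control for each of the 1606 listed genes against its mean log2(value + 1) over the 4 samples, coloured by the limma call, with some of the genes of largest change named. The 410 genes called higher and the 449 called lower spread over the whole range of levels.

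Chondrocyte matrix genes were lower in MMS D14. Of 19 measured members of a list of 30, 13 fell and 1 rose, with a median log2 change of -0.88 against 0.03 over all genes tested. Among all genes 28% were called lower and 25.5% higher. Cytl1, which encodes a cytokine-like protein secreted by chondrocytes (chromosome 5, 37735519 to 37739820), fell to 1051 and 999.8 in MMS D14, against 7954 and 6444 in Control (log2 change -2.80, SE 0.28, limma adjusted p = 1.92e-05). Chad, which encodes the integrin-binding matrix protein chondroadherin, fell to 2219 and 2087, against 9949 and 7434 (log2 change -2.00, SE 0.25, limma adjusted p = 6.30e-05). Ucma, a small calcium-binding protein of cartilage, fell to 19.1 and 15.8, against 97.4 and 96.1 (log2 change -2.41, SE 0.30, limma adjusted p = 7.13e-05). For each of these genes the groups were far apart compared with the spread inside a group. Snorc, a proteoglycan of chondrocytes, fell to 219.8 and 205.3 in MMS D14, against 723 and 612 in Control (log2 change -1.64). The type IX collagen chains Col9a2 (-1.09) and Col9a3 (-1.24), the cartilage oligomeric matrix protein gene Comp (-1.09) and the lubricin gene Prg4 (-1.21) also fell. Core genes of the matrix moved less. Acan, which encodes aggrecan, was 141 and 104 in MMS D14, against 231 and 174 in Control (log2 change -0.73, limma adjusted p = 0.0244). Col2a1, the type II collagen gene, was 489 and 448, against 906 and 638 (log2 change -0.70, limma adjusted p = 0.124), and did not pass. Col11a1, a chain of the thin collagen fibril, overlapped between groups at 56.6 and 51.3 in MMS D14, against 54.2 and 45.0 in Control. Sox9, the transcription factor that drives these genes, fell as well (log2 change -0.58, limma adjusted p = 0.0423), and that call ended after centring, with the replicate block, and on leaving out Control replicate 1 or MMS D14 replicate 2. Matn2, a matrilin found in many tissues, was the member that rose (10.4 and 7.56 in MMS D14, against 2.42 and 2.32 in Control). Without Control replicate 1 the count of falling members was 7. The calls for Acan and Prg4 ended without that library and also without MMS D14 replicate 2. In bulk tissue fewer cells of a type and less RNA per cell cannot be told apart.

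Cartilage intermediate layer genes were much lower. Cilp2, a cartilage intermediate layer protein gene (chromosome 8, 69880369 to 69887687), was 11.9 and 14.7 in MMS D14, against 186 and 151 in Control (log2 change -3.57, SE 0.24, limma adjusted p = 1.80e-06). Its relative Cilp was 421 and 343, against 1881 and 1393 (log2 change -2.09, SE 0.27, limma adjusted p = 7.87e-05). The means of Cilp2 and Cilp were 12.7-fold and 4.28-fold higher in Control than in MMS D14. Prelp, a leucine-rich proteoglycan that anchors collagen (-1.51), the thrombospondin gene Thbs4 (-1.45), the connective tissue growth factor gene Ctgf (-1.11) and Sparc, which encodes osteonectin (-0.88), fell as well.

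Many collagen and fibrosis genes rose. Of 23 measured members of a list of 50, 11 rose and 7 fell, against 25.5% of all genes called higher and 28% called lower, and the list median was 0.47. Col3a1, the type III collagen gene (chromosome 1, 45311538 to 45349706), rose to 644 and 430 in MMS D14, against 45.6 and 70.1 in Control (log2 change 3.20, SE 0.53, limma adjusted p = 0.000473). Cthrc1, a secreted protein of injured matrix (chromosome 15, 39076932 to 39087121), rose to 59.2 and 53.3, against 8.22 and 9.76 (log2 change 2.52, SE 0.45, limma adjusted p = 0.000836). Postn, which encodes periostin, rose to 71.5 and 50.7, against 10.4 and 11.2 (log2 change 2.38, SE 0.46, limma adjusted p = 0.00131). No MMS D14 sample overlapped a Control sample for these genes, and the mean of Col3a1 was 9.28-fold that of Control. Aspn, which encodes the small proteoglycan asporin, rose to 32.4 and 23.9, against 2.54 and 4.20 (log2 change 2.75). Col12a1, a collagen of fibril surfaces (2.60), Fbln2, which encodes fibulin 2 (1.73), Lum, which encodes lumican (1.63), the smooth muscle actin gene Acta2 (1.29) and the fibroblast and myeloid protein gene S100a4 (1.27) rose too. Aebp1, a collagen-binding protein of fibroblasts, rose to 65.5 and 41.6, against 12.7 and 13.3 (log2 change 1.93). Fmod, which encodes fibromodulin, was 323 and 255, against 197 and 216, and did not pass (log2 change 0.47, limma adjusted p = 0.374). The falls in the list were Cilp2, Cilp, Prelp, Thbs4, Ctgf, Fbln7 and Sparc, and several of these are genes of normal cartilage matrix. Synovial lining and fibroblast genes gave 2 rises and 4 falls among 11 measured of 22, where Ly6a, a stem and fibroblast antigen gene, and Has1, a hyaluronan synthase gene, rose. After centring 4 of that list rose, against 0 without MMS D14 replicate 1, where the call for Has1 ended, and 1 without Control replicate 1. Leaving out Control replicate 1 or MMS D14 replicate 2 gave 2 falls. Among tendon and ligament genes 5 of 14 were measured, with Col12a1 rising and Cilp, Thbs4 and Comp falling.

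Genes of the matrix protease and inhibitor list mostly rose, with 7 of 11 measured members higher and 1 lower (list of 36, median log2 change 1.23). Over all genes 25.5% were called higher and 28% lower. Mmp13, the main collagenase of cartilage (chromosome 9, 7272514 to 7283331), rose to 478 and 438 in MMS D14, against 115 and 101 in Control (log2 change 2.08, SE 0.32, limma adjusted p = 0.000302). Mmp2, a gelatinase gene, rose to 181 and 147, against 41.1 and 45.2 (log2 change 1.89, SE 0.43, limma adjusted p = 0.00334). Mmp3, which encodes stromelysin, rose to 26.7 and 13.6, against 5.74 and 3.91 (log2 change 1.80). The MMS D14 samples lay above both Control samples for each, and Mmp3 was uneven between the MMS D14 samples. Mmp19 (1.39), the neutrophil protease gene Ctsg (1.23) and Mmp9 (0.93) rose as well. Plat, which encodes tissue plasminogen activator, fell (-0.80). Mmp8, the neutrophil collagenase gene, was 178 and 196 in MMS D14, against 174 and 195 in Control, and its groups overlapped. Mmp9, at 753 and 864 against 431 and 413, was also the measured member of 16 osteoclast genes.

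Other secreted proteins of inflamed tissue were among the largest rises. Chil1, which encodes a chitinase-like glycoprotein of chondrocytes and neutrophils (chromosome 1, 134182176 to 134190181), rose to 1228 and 937 in MMS D14, against 218 and 159 in Control (log2 change 2.52, SE 0.24, limma adjusted p = 1.17e-05). Serpina3n, an inhibitor of serine proteases, rose to 136 and 104, against 35.2 and 21.3 (log2 change 2.08, SE 0.29, limma adjusted p = 0.000182). Wfdc17, a small myeloid secreted protein gene, rose to 79.1 and 82.2, against 17.5 and 23.4 (log2 change 1.94, SE 0.17, limma adjusted p = 7.96e-06). All 3 showed a gap between groups wider than the spread within either. Slurp1, a small secreted protein of the Ly6 family, was among the largest falls at 6.32 and 5.65 in MMS D14, against 41.2 and 27.2 in Control (log2 change -2.31, SE 0.35, limma adjusted p = 0.000274).

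All 4 Serpina1 copies of the table fell. Serpina1e (chromosome 12, 103946931 to 103958975) was 2.93 and 3.09 in MMS D14, against 66.0 and 36.9 in Control (log2 change -3.65, SE 0.27, limma adjusted p = 2.70e-06). Serpina1b was 20.5 and 18.8, against 210.5 and 120.3 (log2 change -2.96, SE 0.30, limma adjusted p = 1.99e-05). Serpina1d was 11.8 and 15.5, against 154 and 73.7 (log2 change -2.89, SE 0.33, limma adjusted p = 3.46e-05). In each copy Control replicate 1 lay above Control replicate 2, and both lay above the MMS D14 samples. Serpina1a was 4.24 and 9.61, against 49.4 and 28.02 (log2 change -2.36, SE 0.35, limma adjusted p = 0.000270). Given the sequence the copies share, these may not be 4 separate measurements.

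**Figure D3:**
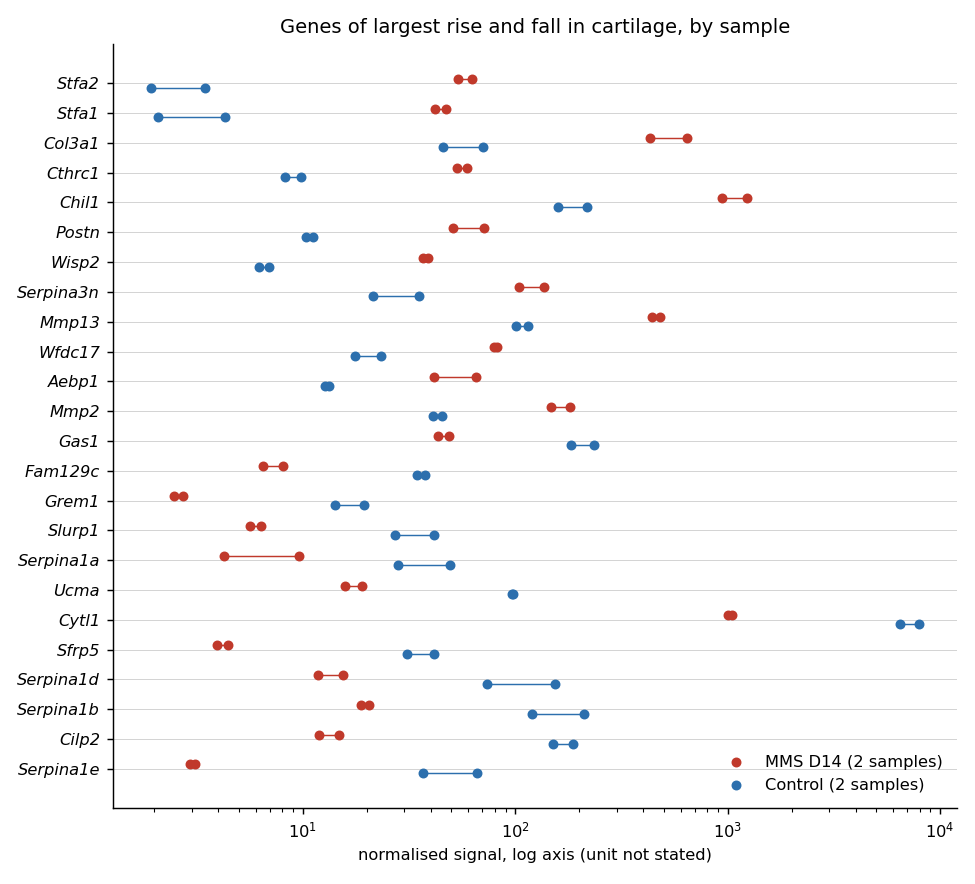
Normalised signal (unit not stated, log axis) of the 12 genes of largest rise and the 12 of largest fall in each MMS D14 sample (red) and each Control sample (blue). Genes were ranked among called genes without overlap, with an average above the median and no predicted-model symbol. BC100530, Stfa3, Col12a1 and Panx3, whose rises were larger than some of those shown, lie outside that ranking. In every gene shown, both MMS D14 points lie on the same side of both Control points, as the ranking required.

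Secreted Wnt antagonists and other Wnt genes were mostly lower, with 8 of 14 measured members falling and 2 rising (list of 32, median log2 change -0.85). By comparison, 28% of all genes were called lower and 25.5% higher. Sfrp5, a secreted frizzled-related protein that binds Wnt (chromosome 19, 42197971 to 42202252), fell to 3.93 and 4.45 in MMS D14, against 41.3 and 30.9 in Control (log2 change -2.82, SE 0.25, limma adjusted p = 7.96e-06). Wif1, another secreted Wnt inhibitor gene, fell to 169.9 and 147, against 416 and 372 (log2 change -1.31). Sost, which encodes the osteocyte Wnt antagonist sclerostin, fell to 35.6 and 34.7, against 94.2 and 96.6 (log2 change -1.42), and Dkk1, a secreted inhibitor of Wnt coreceptors, fell too (-0.87). Ligand and receptor genes also fell, namely Wnt11 (-1.21), Wnt16 (-0.87), Lgr6, a receptor for R-spondins (-1.56), and Fzd9 (-0.84). The rises were Fzd1, a frizzled receptor gene (0.91), and Wisp2, a matricellular protein gene of the CCN family. Wisp2 was 38.8 and 36.7, against 6.19 and 6.89 (log2 change 2.36, SE 0.25, limma adjusted p = 2.09e-05).

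The TGF-beta and BMP list as a whole was near the level of all genes, with 3 rises and 5 falls among 17 measured of 38, against 25.5% of all genes called higher and 28% called lower. Its median was -0.07, against 0.03 over all genes. Grem1, which encodes the BMP antagonist gremlin 1 and marks a set of skeletal stem cells, fell to 2.47 and 2.73 in MMS D14, against 19.4 and 14.1 in Control (log2 change -2.29, SE 0.35, limma adjusted p = 0.000310). Nog, which encodes the antagonist noggin, fell to 2.21 and 2.05, against 6.06 and 4.35 (log2 change -0.97), and Gdf10 (-1.14), Bmp5 (-0.87) and Bmp6 (-0.53) fell among the ligands. Inhba, which encodes a subunit of activin, rose to 13.5 and 8.29, against 5.26 and 4.07 (log2 change 1.04). Fstl1, a follistatin-like glycoprotein gene (1.81), and Tgfbi, a matrix protein induced by TGF-beta (1.34), rose. Gas1, a cell surface receptor that binds hedgehog proteins, fell to 48.5 and 43.5, against 234 and 183 (log2 change -2.15, SE 0.20, limma adjusted p = 1.17e-05). The hedgehog ligand gene Ihh (-1.32) and the pathway target Gli1 (-1.31) fell with it, each with no overlap between groups. Of growth factor genes 7 of 35 were measured, and Igf1 rose (0.96) while Fgf1 (-0.96), Fgfr3 (-0.80), Igfbp5 (-0.67) and Pdgfrl (-0.67) fell. Without Control replicate 1, and likewise without MMS D14 replicate 2, 2 of these 4 falls were called. The call for Igf1 ended without either of these libraries and also without MMS D14 replicate 1.

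Genes of hypertrophic cartilage and of bone did not move as a block. In the prehypertrophic and hypertrophic list 2 of 10 measured members rose and 4 fell (list of 19, median -0.31). Over all genes 25.5% were called higher and 28% lower, for comparison with this list and the bone list below. Panx3, a channel protein gene of prehypertrophic chondrocytes and osteoblasts, rose to 19.7 and 23.1 in MMS D14, against 3.61 and 2.88 in Control (log2 change 2.40, SE 0.37, limma adjusted p = 0.000298). Col10a1, the type X collagen gene that defines hypertrophy, fell to 716 and 564, against 1191 and 1039 (log2 change -0.81, limma adjusted p = 0.0228). Among osteoblast, osteocyte and mineral genes 1 of 15 measured rose and 3 fell (list of 25, median -0.21), or 6 fell where only the 4 samples of these groups entered the fit. Omd, which encodes the bone proteoglycan osteomodulin, fell to 33.7 and 39.97, against 161 and 111 (log2 change -1.84, SE 0.21, limma adjusted p = 3.46e-05). Ibsp, the bone sialoprotein gene, overlapped at 1082 and 1230 in MMS D14, against 1433 and 1174 in Control. The osteocalcin copies Bglap and Bglap2, whose reads may not be separable, had log2 changes of -0.37 and -0.77 and did not pass. The 7 measured of 8 osteoblast and osteocyte markers summed to 3738 and 4408 in MMS D14, against 5524 and 5316 in Control. Their part in these results was not tested.

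**Figure D4:**
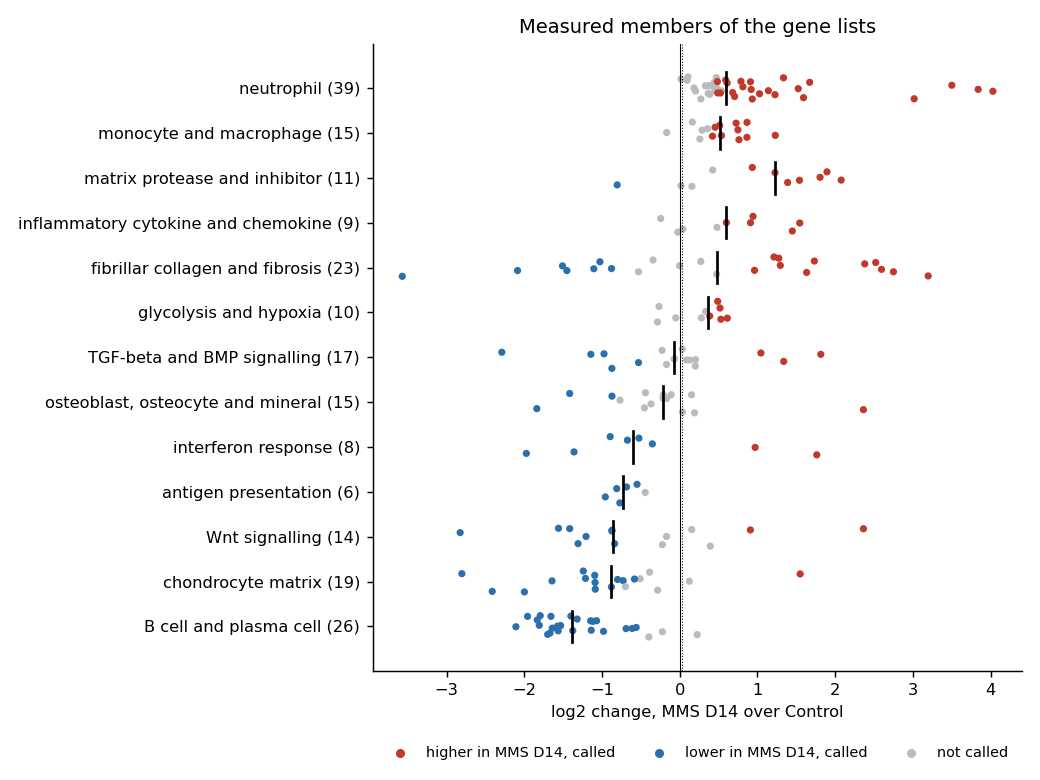
Log2 change of MMS D14 over Control for each measured member of 13 gene lists (points, coloured by the limma call; number measured in brackets), with the list median as a black bar and the median of all genes as a dotted line. B cell, chondrocyte matrix and Wnt members lie mostly left of 0, and neutrophil and macrophage members mostly right.

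Stefins led the rises, and other neutrophil genes were higher by smaller amounts. Stfa2 (chromosome 16, 36403992 to 36408457) rose to 62.6 and 53.7 in MMS D14, against 1.93 and 3.46 in Control (log2 change 4.03, SE 0.26, limma adjusted p = 1.80e-06), and its mean was 21.6-fold that of Control. Stfa1 rose to 47.4 and 42.1, against 2.07 and 4.30 (log2 change 3.50, SE 0.24, limma adjusted p = 1.80e-06). Its near copy BC100530 rose to 62.7 and 39.0, against 2.24 and 2.84 (log2 change 3.84), and Stfa3 rose to 30.9 and 22.0, against 2.27 and 2.43 (log2 change 3.02). The stefins shown above thus moved together, and Stfa2l1, which was already at 38.4 and 44.3 in Control, reached 141 and 126 in MMS D14 (log2 change 1.67). Stfa1 shares long runs with BC100530, and 22.4% of the 50-base windows of Stfa2 occurred in Stfa2l1. Values within each of these pairs may therefore not be independent.

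Of 39 measured neutrophil genes in a list of 43, 23 rose and 0 fell, with a median log2 change of 0.59. Calls over all genes were 25.5% higher and 28% lower. All 39 had an estimate above 0, and in 36 both MMS D14 samples lay above both Control samples, which held for 44.6% of all genes in this direction. Olfm4, a granule glycoprotein gene, rose to 36.4 and 30.1, against 10.9 and 10.8 (log2 change 1.52, SE 0.16, limma adjusted p = 2.10e-05). Among granule genes of early neutrophils the proteases Ctsg and Prtn3 and the peroxidase Mpo rose, with Ctsg at 354 and 374, against 148 and 162 (1.23), Prtn3, the proteinase 3 gene, at 686 and 844, against 398 and 406 (0.92), and Mpo, the myeloperoxidase gene, at 1134 and 1172, against 772 and 834 (0.52). Ms4a3, a membrane protein gene of granulocyte and monocyte precursors (1.14), Ifitm6, an interferon-induced membrane protein gene of myeloid cells (1.34), and Anxa1, which encodes annexin A1 (0.81), rose as well. The call for Mpo ended when any of the 4 libraries was left out. Elane, the neutrophil elastase gene of the same granules, was 1084 and 1245 in MMS D14, against 846 and 863 in Control, and did not pass (log2 change 0.44, limma adjusted p = 0.0664). The calprotectin genes S100a8 and S100a9 were 8474 and 11854, against 6880 and 6926, and 10769 and 13028, against 8237 and 9098, and did not pass (limma adjusted p = 0.0718 and 0.140). The granule genes Ltf, Ngp and Camp did not pass either. The 7 defining markers summed to 34400 and 42658 in MMS D14, against 28747 and 29115 in Control, and their part in the result was not tested. Without Control replicate 1, and likewise without MMS D14 replicate 2, 14 of the 39 genes were called.

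Promoters of neutrophil genes were searched because the members moved together. The letters GAGGAAGT, a core bound by the myeloid factor PU.1, were sought on both strands of RefSeq promoters on GRCm38.p6 that reach from 250 bases before to 50 bases after the start. They occurred in 8 of 33 neutrophil list genes with a promoter, against 3.69% of 27025 genes and 6.28% of 1226 genes of the cartilage table. Among these 8 were also Elane and S100a8, which did not pass, and Mmp8, whose groups overlapped. Whether the letters go with a rise was not tested. The 80-base windows of 2 of these 8 that rose, Prtn3 (chr10:79879536-79879615, plus strand) and Olfm4 (chr14:80000185-80000264, plus strand), have the match in capitals.
Prtn3: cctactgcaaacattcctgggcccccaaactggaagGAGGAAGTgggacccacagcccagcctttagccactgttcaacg
Olfm4: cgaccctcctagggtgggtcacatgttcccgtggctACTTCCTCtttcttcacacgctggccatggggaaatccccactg
A match describes these letters only, and binding was not measured.

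Monocyte and macrophage genes were higher. Of 15 measured in a list of 40, 10 rose and 0 fell, with a median of 0.51. The shares of all genes called were 25.5% higher and 28% lower. Trem2, a lipid-sensing receptor of macrophages, rose to 27.5 and 21.6 in MMS D14, against 9.46 and 10.2 in Control (log2 change 1.23, SE 0.17, limma adjusted p = 0.000173). Ccr2, the chemokine receptor of recruited monocytes (0.87), Msr1, a scavenger receptor gene (0.72), and F10, which encodes coagulation factor X (0.75), rose. Cx3cr1, a receptor of resident macrophages, was 9.60 and 8.03, against 9.99 and 9.99, and did not pass. None of the 5 defining macrophage markers was analysed here. The count rested on the libraries used and was 4 without Control replicate 1 and 6 without any other of the 4 libraries. Inflammatory cytokine and chemokine genes had 5 rises and 0 falls among 9 measured of 43, with the same shares over all genes for comparison. Tnfaip6, a hyaluronan-binding protein induced by inflammation, rose to 10 and 6.03, against 2.50 and 1.60 (log2 change 1.54), and Ccl8, a monocyte chemokine gene, rose to 6.64 and 5.46, against 1.64 and 1.51 (log2 change 1.45). Ccr1 (0.94), the interleukin 1 decoy receptor gene Il1r2 (0.91) and Ccl9 (0.60) completed the rises. Il1b, the interleukin 1 beta gene, was 11.99 and 11.5 in MMS D14, against 14.8 and 13.4 in Control, and did not pass (log2 change -0.24, limma adjusted p = 0.41).

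B cell genes fell together, where 28% of all genes were called lower and 25.5% higher. Of 26 measured in a list of 41, 23 fell and 0 rose, with a median log2 change of -1.39, and 22 to 24 fell under each alternative. Spib, a transcription factor gene of B cells, fell to 19.8 and 21.4 in MMS D14, against 88.9 and 95.0 in Control (log2 change -2.11, SE 0.17, limma adjusted p = 4.85e-06). Ms4a1, which encodes CD20, fell to 9.29 and 9.77, against 35.8 and 44.5 (log2 change -1.96). Tnfrsf13c, the receptor for the B cell survival factor BAFF, fell to 6.00 and 6.64, against 22.4 and 26.4 (log2 change -1.79, SE 0.16, limma adjusted p = 7.96e-06). Parts of the B cell receptor fell alike, with Cd79a at 69.7 and 74.4, against 219.1 and 239.7 (-1.66), and Cd79b at 43.0 and 52.2, against 148 and 164 (-1.70). Stage-defining genes included Vpreb3 of precursor B cells (-1.81), Rag1 of receptor gene rearrangement (-1.07) and Fcer2a of mature B cells (-1.12), which all fell. Jchain, which joins secreted antibodies and is high in plasma cells, was 29.7 and 35.1, against 26.97 and 27.99, and did not pass (log2 change 0.22), nor did Igll1 and Lef1. Fam129c, a gene expressed in B cells, was among the 12 largest falls in the ranking of named genes. It was 6.51 and 8.07, against 34.6 and 37.7 (log2 change -2.17, SE 0.22, limma adjusted p = 2.09e-05). The 5 measured B cell markers summed to 189 and 204 in MMS D14, against 587 and 617 in Control, and their part in the result was not tested.

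Promoters of the B cell list held the octamer ATGCAAAT, read by POU factors, in 2 of 20 genes, against 1.97% of 27025 genes and 2.12% of 1226 genes of the cartilage table. The EBF1 motif was also in 2 of 20, against 1.06% of all genes and 2.12% of those in the table. Both strands were searched, and no promoter of the list held more than 1 kind of match, the PU.1 letters included. The octamer, in capitals here, began at position -45 from the start of Vpreb3 (chr10:75948219-75948298, plus strand) and at -130 from that of Blnk, a B cell receptor linker gene (chr19:40994308-40994387, minus strand).
Vpreb3: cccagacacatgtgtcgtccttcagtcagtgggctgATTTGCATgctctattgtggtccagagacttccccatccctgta
Blnk: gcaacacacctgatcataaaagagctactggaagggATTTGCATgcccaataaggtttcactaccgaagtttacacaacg
With so few promoters the shares are imprecise.

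Class II antigen presentation genes were lower as well, with 5 of 6 measured falling and 0 rising (list of 21, median -0.73). For all genes the shares called were 28% lower and 25.5% higher, here and for the T and NK cell list below. Cd74, the invariant chain gene, fell to 465 and 485 in MMS D14, against 718 and 813 in Control (log2 change -0.68), and Ciita, the master regulator of class II genes, fell to 1.83 and 1.72, against 3.04 and 3.08 (log2 change -0.55). H2-DMb2 (-0.96), H2-Ob (-0.81) and H2-Oa (-0.77), which load or edit class II peptides, fell. The sum of B cell markers given above moved with this list, and its part in the result was not tested. The call for H2-Ob ended without MMS D14 replicate 2. T and NK cell genes were 0 rises and 3 falls among 6 measured of 28. Cd2, a T cell adhesion gene (-1.17), and Il7r, the interleukin 7 receptor gene (-0.88), fell, and the call for Lck (-0.41, limma adjusted p = 0.0450) ended when any of the 4 libraries was left out.

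Interferon-induced genes moved in both directions, with 6 of 8 measured falling and 2 rising (list of 34, median -0.60). All genes together had 28% called lower and 25.5% called higher. The falls numbered 5 after centring and 5 with the replicate block, and leaving out any of the 4 libraries also reduced them. Isg15, a ubiquitin-like antiviral protein gene, fell to 13.1 and 20.2 in MMS D14, against 39.7 and 47.5 in Control (log2 change -1.36, SE 0.21, limma adjusted p = 0.000302). Ifi27l2a fell to 17.2 and 16.4, against 51.8 and 91.2 (log2 change -1.97, SE 0.24, limma adjusted p = 5.49e-05). Rsad2, which encodes viperin (-0.89), Oasl1 (-0.67), Xaf1 (-0.53) and Ifi27 (-0.35) fell too. The rises were both of the membrane-inserted Ifitm family. Ifitm1 was 119.8 and 128, against 34.0 and 37.6 (log2 change 1.76, SE 0.16, limma adjusted p = 7.96e-06), and Ifitm2 was 797 and 789, against 405 and 404 (log2 change 0.97).

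Muscle gene calls rested largely on single libraries, and lower calls made up 28% of all genes. Mylpf, a fast muscle myosin light chain gene, was 4.23 and 9.39 in MMS D14, against 15.3 in Control replicate 1 and 90.3 in Control replicate 2. Of 6 measured genes of a list of 35, 4 were called lower, and 1 was so on leaving out Control replicate 2 or MMS D14 replicate 1. Pygm, the muscle glycogen phosphorylase gene, was called in each of the 10 alternatives (highest limma adjusted p = 0.0460). Cfd, which encodes adipsin of fat cells, was not called and was also highest in Control replicate 2, at 76.9 and 64.5 in MMS D14, against 93.7 and 302 in Control. Of 28 adipocyte genes 6 were measured, and Orm1, an acute-phase protein gene, was the member that rose (0.79, limma adjusted p = 0.0425). That call ended with the replicate block and without any of the 4 libraries. None of the 5 defining muscle markers and none of the 4 defining adipocyte markers was analysed here.

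MMS D14 was next compared with MMS D7, the group with the next lower number, to give the difference between these neighbours. Chondrocyte matrix genes were lower in MMS D14, neutrophil genes were higher, and few B cell genes were called. limma called 272 of 1606 genes (16.9%), 149 higher (9.28%) and 123 lower (7.66%), and centring each sample turned this split to 79 higher and 137 lower. In 1022 genes (63.6%) the groups did not overlap. Among 19 chondrocyte matrix genes 10 fell and 0 rose (median -0.76), and among 39 neutrophil genes 22 rose and 0 fell (median 0.72), while over all genes the median was 0.09. The 26 B cell genes had 1 rise and 1 fall. Cilp2, at 11.9 and 14.7 in MMS D14, was 46.9 and 79.2 in MMS D7 (log2 change -2.12, SE 0.24, limma adjusted p = 0.00189). Cthrc1 was 59.2 and 53.3, against 12.1 and 14.6 (log2 change of about 2.0, SE 0.45, limma adjusted p = 0.0165). Myoc, which encodes the extracellular glycoprotein myocilin, was 17.1 and 12.9, against 72.0 and 84.0 (log2 change -2.31, SE 0.42, limma adjusted p = 0.00716). In these genes no sample of MMS D14 reached the range of MMS D7. By the ranking used for named genes, Stfa1 (1.42), Orm1 (1.34), Olfm4 (1.30) and Mrgpra2b, a receptor gene expressed in mouse neutrophils (1.27), were the other largest rises. Serpina1e (-1.82), Serpina1d (-1.82) and Cytl1 (-1.71) were the other largest falls in it. Outside that ranking, BC100530 (1.79), Col12a1 (1.60) and Stfa3 (1.47) rose more than Stfa1. The count rested on single libraries, with 3 genes without MMS D7 replicate 2, 444 without MMS D7 replicate 1, 29 on leaving out MMS D14 replicate 2, and 87 on leaving out MMS D14 replicate 1. Cilp2 and Olfm4 were called in each of the alternatives run for this comparison.

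MMS D28 was then compared with MMS D14, which shares the MMS D14 samples with the comparison before. Injury matrix genes were lower in MMS D28, and several genes with low values in MMS D14, such as Serpina1e and Sfrp5, were higher. limma called 351 genes (21.9%), 93 higher (5.79%) and 258 lower (16.1%), or 151 higher and 212 lower after centring. In 1088 genes (67.7%) the groups did not overlap. Of 23 collagen and fibrosis genes 9 fell and 0 rose (median -0.86), and of 11 matrix protease and inhibitor genes 3 fell and 0 rose. The median over all genes was -0.01. Col6a2, a type VI collagen chain gene, was 90.2 and 146 in MMS D28, against 442 and 270.4 in MMS D14 (log2 change -1.58, SE 0.28, limma adjusted p = 0.00747). Postn was 11.7 and 28.6, against 71.5 and 50.7 (log2 change -1.66, SE 0.46, limma adjusted p = 0.0260). Serpina1e was 12.3 and 10.9, against 2.93 and 3.09 (log2 change 1.65, SE 0.27, limma adjusted p = 0.00565). These groups did not overlap, although Postn was uneven in MMS D28. Per1, a core repressor of the circadian clock, was 30.9 and 26.9, against 9.41 and 8.49 (log2 change 1.59, SE 0.18, limma adjusted p = 0.00147). By the same ranking, Sfrp5 (1.25), Serpina1b (1.07) and Il1r2 (1.04) were the other largest rises. Mt3, a metallothionein gene (-1.77), Cthrc1 (-1.77) and Fmod (-1.63) were the other largest falls in it. Outside that ranking, Col12a1 (-1.70) fell more than Fmod. Only 5 genes were called without MMS D14 replicate 1 and 16 without MMS D28 replicate 1, against 217 without MMS D14 replicate 2 and 749 without MMS D28 replicate 2. Per1 was called in each of the alternatives run for this comparison.

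Set in the order of the groups, the genes above followed different courses. Stfa2 was 1.93 and 3.46 in Control, 50.7 and 45.5 in MMS D3, 27.1 and 26.2 in MMS D7, 62.6 and 53.7 in MMS D14, 49.1 and 37.1 in MMS D28, 11.98 and 12.97 in R1, and 1.59 and 3.73 in R2. It was thus far above Control in each MMS group, and in R2 its range overlapped that of Control. Cilp2 was 186 and 151 in Control, 98.8 and 113 in MMS D3, 46.9 and 79.2 in MMS D7, 11.9 and 14.7 in MMS D14, 18.7 and 24.7 in MMS D28, 97.6 and 76.8 in R1, and 126 and 159 in R2. Its lowest samples were those of MMS D14. Panx3 was 3.61 and 2.88 in Control, 5.06 and 3.57 in MMS D3, 10.4 and 10.2 in MMS D7, 19.7 and 23.1 in MMS D14, 4.32 and 9.89 in MMS D28, 5.45 and 3.80 in R1, and 10.2 and 3.82 in R2. Its highest samples were those of MMS D14. Cd79a was 219.1 and 239.7 in Control, 122 and 142 in MMS D3, 81.7 and 88.6 in MMS D7, 69.7 and 74.4 in MMS D14, 43.3 and 72.9 in MMS D28, 115 and 101 in R1, and 315 and 307 in R2. The neighbours MMS D14 and MMS D28 overlapped in this gene, and R2 lay above Control. Per1 was 9.09 and 8.34 in Control, 24.2 and 25.6 in MMS D3, 13.8 and 21.9 in MMS D7, 9.41 and 8.49 in MMS D14, 30.9 and 26.9 in MMS D28, 17.5 and 18.9 in R1, and 11.3 and 12.1 in R2. MMS D14 overlapped Control, and the samples of the other 5 groups lay above both. These courses are descriptions of 2 samples a group.

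**Figure D5:**
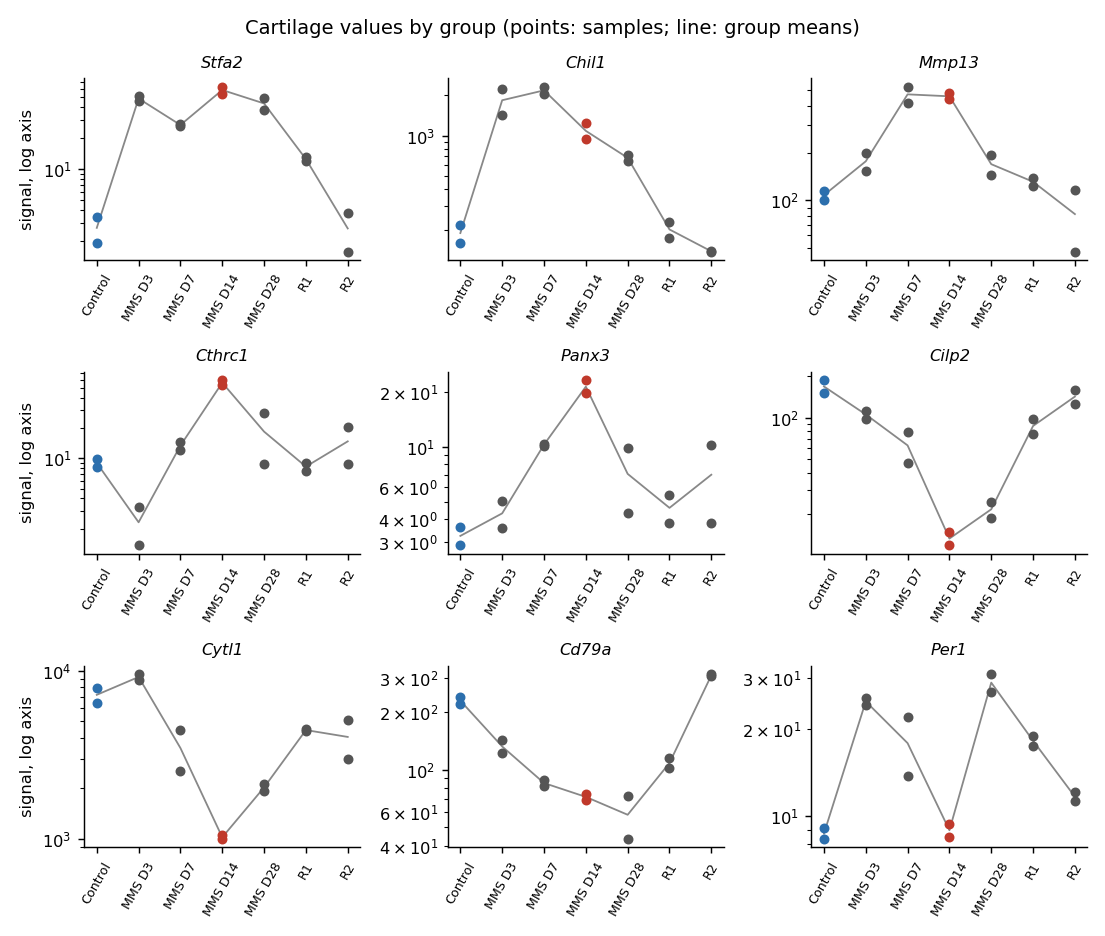
Normalised signal (unit not stated, log axis) of 9 genes in each cartilage sample, in the order Control, MMS D3, MMS D7, MMS D14, MMS D28, R1 and R2, with lines through group means, MMS D14 in red and Control in blue. Cthrc1 and Panx3 peak in MMS D14, Cilp2 and Cytl1 are lowest there, Stfa2 is above Control in each MMS group, and Per1 in MMS D14 lies at the Control level.

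The synovium table, in which 3 MMS D14 and 3 Control samples are given in FPKM, held 34 of the 134 named genes. In 20 of the 34 both tissues showed MMS D14 on the same side of Control with no overlap, among them Col3a1, Cthrc1, Postn, Mmp2 and Wisp2, which were higher, and Cytl1 and Sfrp5, which were lower. In 8 the tissues went in opposite directions. Of all 240 genes in both tables, 117 (48.8%) lay on the same side with no overlap and 58 (24.2%) on opposite sides. Of the 1178 synovium genes 98.0% differed at least 1.5-fold between the means of MMS D14 and Control, so these counts are descriptions.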

How the data were processed

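Cartilage and synovium RNA of C57BL/6 mice was sequenced from Trizol extracts with BGI libraries, per the labels' protocols, and aligned with HISAT2 to mm10, per the submitters' processing notes. The authors deposited a cartilage table of normalised signal whose unit is not stated and a synovium table of FPKM, per the file headers. No read counts were used and depth is unknown, so the number of samples limits the precision and no counting interval is given.

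The 1606 cartilage genes were analysed as log2(value + 1) in limma 3.58.1 (R 4.3.3), with all 7 groups sharing the spread and a trend in the variance. The 3 comparisons were fitted, two-sided, with Benjamini-Hochberg adjustment over all genes and a threshold of 0.05. A filter of at least 1 in at least 2 samples removed 0 genes, so the alternative without it repeats the main fit. The fit was tested on simulated data. No label says that replicate numbers pair samples, and none were paired. At most 0.560% of values were identical between any samples. Of the symbols, 2 had become a date or number and are not named here.

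Of the called genes with no overlap between groups, an average above the median and a symbol that is no predicted model, the 12 largest changes in each direction were named (5 in the other comparisons). Up to 4 called members of each of 32 gene lists, by adjusted p, and the measured cell type markers were added. Most named genes were thus chosen for a small adjusted p or a large change, which favours a stable call under the alternatives. Other list members are given for their values. Members and lists were chosen with earlier results of these data known, so a list's count is a description. Lists with 0 measured members were cell cycle (84 genes), erythroid (37) and megakaryocyte and platelet (19), and 3 lists had 1 measured member (osteoclast, endothelial and mitochondrial respiration). Alternatives were centring on the sample median, a pseudocount of 0.10, no filter, no trend, the replicate block, only the 2 groups compared, each library left out, and a further limit on the log2 change. Positions and coding sequences came from GENCODE vM21 on GRCm38, promoters from RefSeq (GRCm38.p6). Python 3.11.15 was used with numpy 2.4.6, pandas 2.3.3 and matplotlib 3.10.9.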

Additional observations from a re-analysis of the deposited data

Results flagged for a closer look

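In 8 of the 34 named genes listed for both tissues, and in 58 of all 240 genes (24.2%) in both tables, MMS D14 lay on opposite sides of Control in cartilage and in synovium, with no overlap in either. The share among named genes was thus near that among all genes in both tables. The difference between the tissues was not tested, since the tables were normalised separately and are in different units. Values below are the normalised signal in 2 cartilage samples and FPKM in 3 synovium samples per group.

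In 5 of the 8 named genes, among them the matrix genes Cilp, Thbs4 and Comp, MMS D14 was lower in cartilage and higher in synovium. Cilp, a cartilage intermediate layer gene, had a cartilage log2 change of -2.09, and in synovium it was 212, 187 and 228 in MMS D14, against 32.8, 26.6 and 21.8 in Control. Thbs4 had a cartilage log2 change of -1.45, and in synovium it was 387, 376 and 322 in MMS D14, against 12.6, 15.8 and 19.4 in Control. Comp had -1.09 in cartilage, with synovium values of 492, 564 and 558 in MMS D14, against 171, 175 and 156 in Control. Sox9, the chondrocyte transcription factor gene, had -0.58 in cartilage, with 7.11, 8.98 and 8.58 in MMS D14 synovium, against 2.47, 2.96 and 2.12 in Control. Pdgfrl, a receptor-like protein gene, had -0.67 in cartilage, with 31.0, 35.9 and 37.0 in MMS D14 synovium, against 7.04, 6.36 and 6.72 in Control. The cartilage calls for Sox9 and Pdgfrl ended without Control replicate 1 and also without MMS D14 replicate 2. That for Sox9 ended after centring and with the replicate block as well.

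The reverse held for 3 genes. Orm1, an acute-phase protein gene, had a cartilage log2 change of 0.79, and in synovium it was 8.98, 13.6 and 19.2 in MMS D14, against 191, 142 and 114 in Control. Il1r2, the decoy receptor gene, had 0.91 in cartilage, with 1.85, 1.18 and 2.08 in MMS D14 synovium, against 9.40, 8.71 and 6.76 in Control. Hk2, a hexokinase gene, had 0.38 in cartilage, with 5.31, 5.40 and 7.11 in MMS D14 synovium, against 11.83, 11.97 and 15.86 in Control. The cartilage calls for Hk2 and Orm1 ended when any of the 4 libraries was left out, and that for Orm1 also with the replicate block.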

How the results depend on the processing

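For MMS D14 against Control, 502 to 714 genes were called with 1 library left out (859 with all), 802 with the replicate block and 211 with an absolute log2 change of at least 1, and the other alternatives gave 855 to 978. Centring moved the median of all genes from 0.03 to 0.11. For MMS D14 against MMS D7 (272), leaving out 1 library gave 3 to 444, the replicate block 177 and the log2 limit 54. For MMS D28 against MMS D14 (351), they gave 5 to 749, 267 and 49. Of 108 named genes called against Control, 83 were called in every one of 10 alternatives, 25 lost the call in at least 1 and 0 changed sign. Of 18 not called, 9 were called in at least 1 alternative, among them Col2a1 and Bglap2 (only the 2 groups compared), S100a8 and Camp (no trend) and Elane (both), and 2 changed sign with a library left out, Col11a1 (-0.00783 to 0.25) and Dmp1 (-0.46 to 0.033). The causes were not tested. Deviations of same-numbered samples correlated across genes at 0.21 between Control and MMS D14 and at -0.38 between MMS D7 and MMS D14. The value was -0.43 between MMS D14 and MMS D28, and over all 21 pairs of groups the range was -0.51 to 0.42. Whether the replicate numbers pair samples was not tested. With 2 samples a group and values of unknown depth, genes near the threshold cannot be placed firmly, and a table of selected genes shows nothing of genes outside it.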

Other observations

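Glycolysis, clock, nerve and heat shock genes changed in small numbers between MMS D14 and Control cartilage. Of 10 measured glycolysis and hypoxia genes 5 rose and 0 fell (list of 29, median 0.36), against 25.5% of all genes called higher. Pgam1, a glycolytic mutase gene, was 202 and 195 in MMS D14, against 140.1 and 135 in Control (log2 change 0.53, limma adjusted p = 0.00692). Pkm, the pyruvate kinase gene, was 625 and 582, against 433 and 427 (log2 change 0.49, limma adjusted p = 0.0158). These changes were small, and 1 of the 10 was called without Control replicate 1 and likewise without MMS D14 replicate 2. Among 4 measured circadian genes of 18, the clock activator gene Arntl fell to 7.64 and 4.94, against 10.6 and 10.3 (log2 change -0.67), and Nfil3, a repressor of clock output, rose to 13.8 and 13.8, against 8.43 and 8.41 (log2 change 0.65). Without MMS D14 replicate 2 none of the 4 was called by limma, and the call for Nfil3 also ended without Control replicate 1. The labels give no time of day.

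Ntn4, which encodes the basement membrane protein netrin 4, fell to 12.5 and 10.6 in MMS D14, against 50.9 and 37.5 in Control (log2 change -1.84, SE 0.19, limma adjusted p = 1.99e-05). S100b (-0.75) and the myelin protein gene Pmp22 (-0.64) also fell, which made 3 of 4 measured in a list of 20 sensory and nerve genes, and 1 without Control replicate 1 and likewise without MMS D14 replicate 2. Both S100b and Ntn4 are also expressed outside nerves, and 28% of all genes were called lower. In the protein folding list 3 of 7 measured members fell and 1 rose (list of 34, median -0.19). These counts stand beside 28% of all genes called lower and 25.5% called higher. The heat shock genes Hspa1a (-0.76), Hspa1b (-0.71) and Hspb1 (-0.61) fell, where Hspa1a and Hspa1b are near copies whose reads may not be separable, and Serpinh1, the collagen chaperone gene, rose (0.60, limma adjusted p = 0.0328). The call for Serpinh1 ended when any of the 4 libraries was left out, and that for Hspa1b without MMS D14 replicate 2. Cox6a2, a muscle-type subunit of cytochrome oxidase, fell to 5.54 and 9.49, against 15.7 and 23.4 (log2 change -1.28). None of 4 measured immediate early genes, 4 histone genes, 3 fatty acid genes or 1 endothelial gene was called by limma.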
